A study of Mus musculus with 4 samples.

Results

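The genes described here are 10 genes of major histocompatibility complex (MHC) class I antigen presentation: the class I heavy chains H2-D1 and H2-K1, their light chain B2m, the peptide transporter subunits Tap1 and Tap2, the loading factor Tapbp, the class I activator Nlrc5, and the immunoproteasome subunits Psmb8, Psmb9 and Psmb10. They were taken by symbol, and all 10 are among the 20385 genes that both deposited tables list. RNA was measured in the dissected cerebral cortex at embryonic day 16, in wild-type (WT) mouse embryos and in embryos with a Cd93 knockout (KO), both of strain C57BL/6. The study asked what the receptor CD93 does in the formation of astrocytes in the developing brain. Each genotype has 2 libraries (WT 1 and WT 4, KO 5 and KO 6), and the design text gives triplicates. The labels name no other allele or treatment, do not say which part of Cd93 was deleted or in which cells, and leave it unsaid whether the libraries are of separate embryos, so p-values measure the spread between these libraries. The labels call the sample brain, and the extraction protocol says that cortex was dissected. Each of the 2 deposited tables holds 1 WT and 1 KO library: table A holds WT 1 and KO 6, and table B holds WT 4 and KO 5.

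MHC class I molecules display short peptides from inside the cell at its surface. The proteasome cuts proteins into peptides, the TAP transporter carries them into the endoplasmic reticulum, tapasin (the product of Tapbp) holds the empty class I molecule next to the transporter, and a heavy chain with bound peptide travels to the surface together with β2-microglobulin. Interferon induces most of these genes in many cells, in part through NLRC5, which acts at class I promoters together with RFX, CREB and NF-Y proteins. In brain, class I levels are low in neurons and higher in endothelium and microglia, and class I proteins have also been studied for roles in the wiring of synapses.

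The upstream sequences of the 3 genes that make up the class I molecule are shown because H2-D1 and H2-K1 share most of theirs and yet differed in how they varied between libraries. Each runs 5′ to 3′ and holds the 180 bases before a RefSeq start (GRCm38.p6). Capitals mark every match to CCAAT on either strand (bound by NF-Y), to TGACG (the core of CREB sites), to the NF-kB consensus and, in B2m, to GAAA, any 2 bases, GAAA (the core of the interferon-stimulated response element). The 3 windows are chr17:35262914-35263093 on the plus strand for H2-D1, chr17:34000334-34000513 on the minus strand for H2-K1 and chr2:122147507-122147686 on the plus strand for B2m.
H2-D1: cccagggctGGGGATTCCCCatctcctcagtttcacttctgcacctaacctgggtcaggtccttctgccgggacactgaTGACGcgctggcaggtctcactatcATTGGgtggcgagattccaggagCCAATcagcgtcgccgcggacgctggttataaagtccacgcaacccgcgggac
H2-K1: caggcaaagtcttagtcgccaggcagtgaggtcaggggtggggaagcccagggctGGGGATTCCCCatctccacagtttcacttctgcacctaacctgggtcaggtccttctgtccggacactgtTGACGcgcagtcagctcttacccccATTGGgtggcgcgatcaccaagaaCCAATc
B2m: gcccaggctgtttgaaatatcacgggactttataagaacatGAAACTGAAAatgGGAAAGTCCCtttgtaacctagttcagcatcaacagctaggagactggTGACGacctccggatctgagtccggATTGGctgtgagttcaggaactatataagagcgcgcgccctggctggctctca

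Over the 250 bases before their starts, the H2-D1 and H2-K1 sequences were identical at 177 of 204 aligned positions, or 86.8%. Of the 10 genes, 8 matched a promoter of the RefSeq table, and Tap2 and Nlrc5 did not. The 250 bases before the start were searched on both strands in all 32851 promoters of full length in the table. CCAAT was found in 33.8% of them, TGACG in 17.8%, the NF-kB consensus in 3.90% and the interferon-stimulated response element core in 2.98%. CCAAT was found in H2-D1, H2-K1, B2m, Tap1, Tapbp and Psmb9. TGACG was found in the same genes except Tapbp, and the NF-kB consensus in H2-D1, H2-K1 and B2m. An exact match to GAAA, any 2 bases, GAAA was found in B2m alone of the 8. Looser forms of the interferon-stimulated response element were not searched, so the other promoters are not shown to lack one. In H2-D1 and in H2-K1 the capitals at the 5′ end are overlapping matches to the NF-kB consensus on both strands. These matches describe letters and were not tested as binding sites.

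The mRNAs of the 2 heavy chains are also alike, which bears on how reads can be told apart. Over 900 compared bases of their open reading frames, the GENCODE transcripts H2-D1-202 and H2-K1-201 were identical at 91.8%. The 90 bases where they differ most are printed with the 17 differing bases in capitals, and run from base 489 to 578 of the frame in H2-D1 and from 480 to 569 in H2-K1, counted from the first base of the start codon.
H2-D1: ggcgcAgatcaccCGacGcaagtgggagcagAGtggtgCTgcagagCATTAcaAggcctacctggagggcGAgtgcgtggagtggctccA
H2-K1: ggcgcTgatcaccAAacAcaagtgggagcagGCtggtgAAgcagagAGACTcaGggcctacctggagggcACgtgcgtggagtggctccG

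Of all 50-base stretches of H2-D1 transcripts, 12.8% also occur in a transcript of another gene, and of those of H2-K1, 9.63%. The share was 23.2% for Tapbp, 11.9% for Psmb8, 11.6% for Tap2, 4.19% for Psmb9, 3.33% for Tap1 and 0.338% for Nlrc5, and B2m and Psmb10 had none. These shares are of distinct stretches in annotated transcripts and not of reads. How uncertain they make the counts of such genes was not tested. The handling of reads with several matches is not given in the sources used here.

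The libraries summed to between 16318317 (KO 6) and 17586157 (WT 1) counts, so 1 count is 0.0569 to 0.0613 CPM (the count scaled to a common library size). Cd93, the targeted gene, had 680 (WT 1), 409 (WT 4), 111 (KO 5) and 99 (KO 6) counts, so both KO libraries lay below both WT libraries. It was at -2.32 (SE 0.25) as a log2 fold change, for which edgeR's quasi-likelihood test gave an adjusted p of 0.211 and DESeq2 gave 1.59e-12. WT 1 stood apart in other genes: the summed level of 12 meningeal and fibroblast markers was 803 CPM there and 58.3 to 119 CPM elsewhere, and that of 12 markers of the ganglionic eminence, the ventral forebrain beside the cortex, was 899.8 CPM there and 322 to 481 CPM elsewhere. Of 12 markers of cortical excitatory neurons and their progenitors, the summed level was 3845 to 4737 CPM in the 4 libraries and lowest in WT 1. No other tissue was compared, so these levels do not show how cleanly the cortex was dissected. Values without WT 1 are given too for H2-D1, B2m, Tap1, Psmb10 and several of the lists that were highest in WT 1.

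At this stage the class I genes were expressed at low levels, except B2m. The 10 genes together had 1318 (WT 1), 903 (WT 4), 1223 (KO 5) and 1118 (KO 6) counts. Per kilobase of exon, B2m was highest with 22.99 ± 5.65 CPM (SD over 4 libraries), and its lowest library lay above the highest library of each of the other 9 genes. Psmb10 followed with 5.83 ± 0.962, Tapbp with 4.91 ± 0.661 and H2-D1 with 4.31 ± 2.75 CPM per kilobase, and the ranges of these 3 genes overlapped. H2-K1 had 1.26 ± 0.372 and Tap1 0.484 ± 0.0750 CPM per kilobase, and H2-K1 was above Tap1 in every library. Psmb8 (0.151), Tap2 (0.113), Nlrc5 (0.0453) and Psmb9 (0.0432 CPM per kilobase) formed the bottom of the order, where each gene's range overlapped that of the next.

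**Figure D1:**
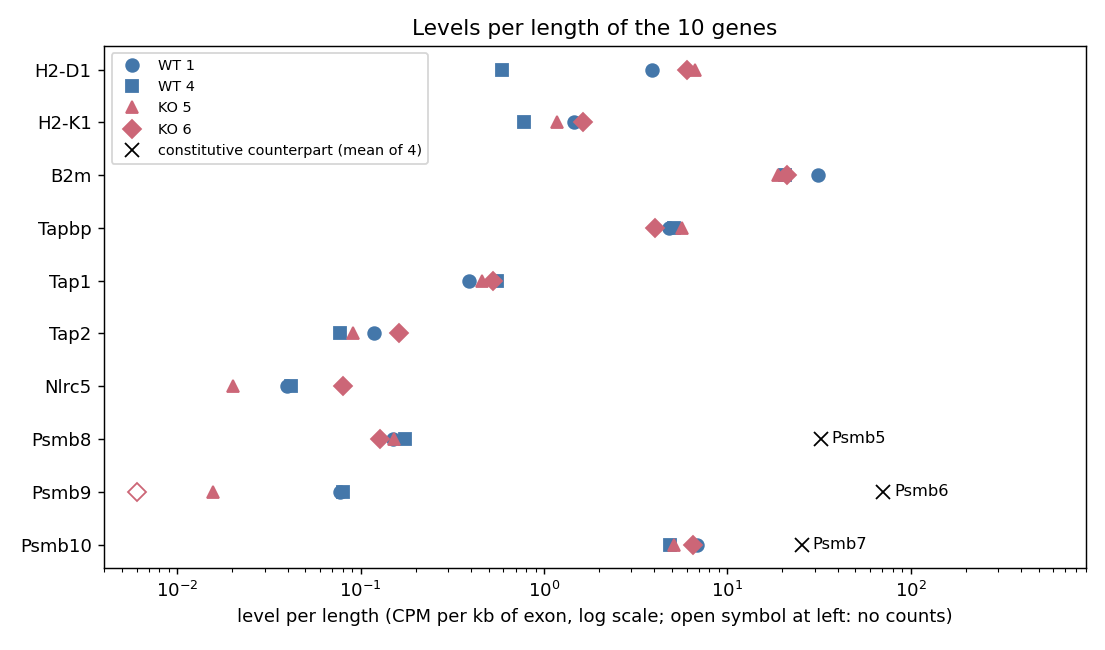
Level of each of the 10 genes in each library, in CPM per kilobase of exon on a log axis, with WT libraries in blue and KO libraries in red. Crosses give the 4-library mean of the constitutive proteasome subunits that Psmb8, Psmb9 and Psmb10 replace. B2m lies to the right of the other 9 genes, H2-D1 is the gene with the widest spread among those with more than a few counts, and the open symbol is Psmb9 in KO 6, which had no counts.

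Of the 10 genes, 6 passed the filter on low counts and entered the test (H2-D1, H2-K1, B2m, Tap1, Tapbp and Psmb10), and Tap2, Nlrc5, Psmb8 and Psmb9 did not. None of the 6 was called by edgeR at an adjusted p under 0.05, and none had an unadjusted p under 0.05. The same test did not call Cd93 either, at a log2 fold change of -2.32 and an adjusted p of 0.211 by edgeR. The lack of a call therefore does not show that a gene was unchanged. Over all 16371 genes tested, 0.0122% were called in that test (2 genes, both lower in KO), and 1.94% had an unadjusted p under 0.05. DESeq2, which tested all 10, called none of them and 0.0442% of its genes, and limma-voom, which tested the same 6, called none of these and 0.0122% of its genes. No member was called in the fit without a filter, which called 0.00981% of its genes, nor in those without KO 5 (0.0291%) or without KO 6 (0.0466%). The median log2 fold change of the 6 was 0.03, with 3 above and 3 below 0, beside a median of -0.0028 over all genes tested. An exact permutation test of 2 libraries against 2 cannot give a two-sided p below 0.333, so none is given for single genes.

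**Figure D2:**
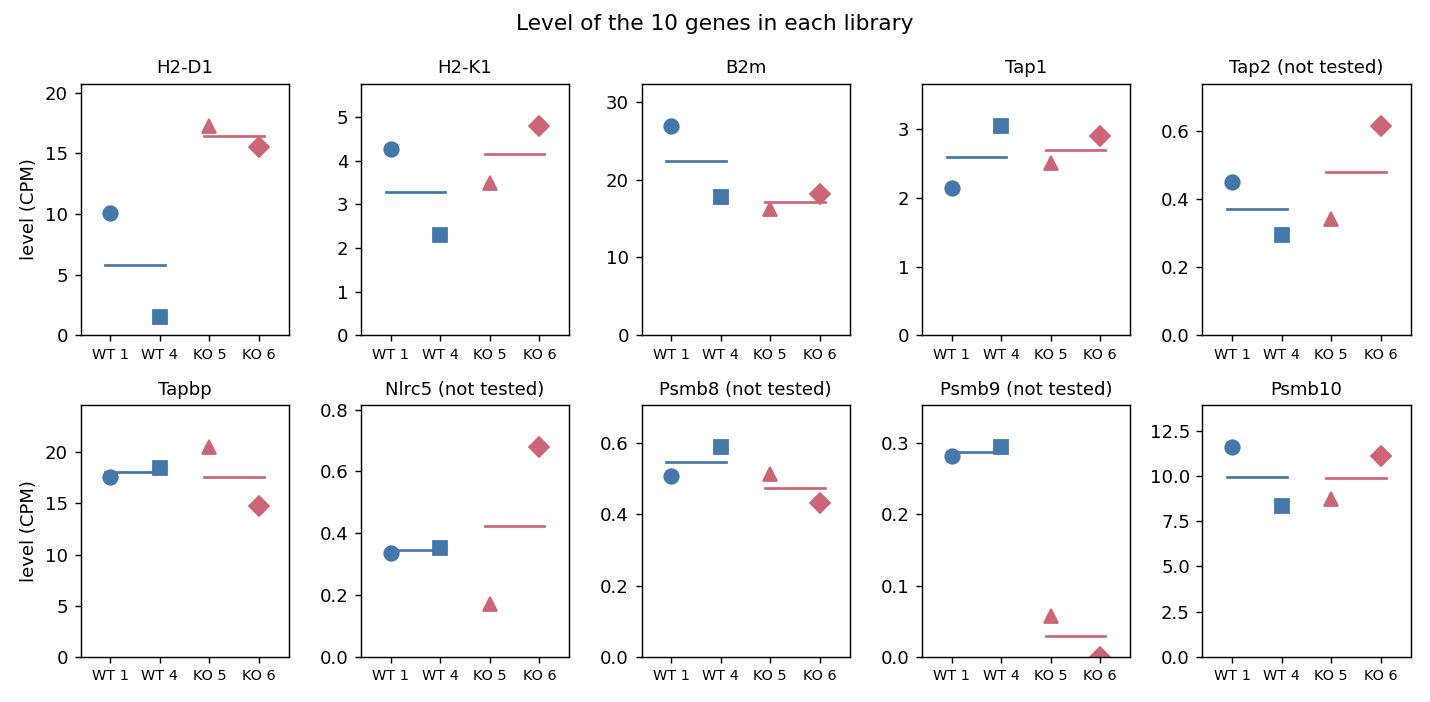
Level of each of the 10 genes in each library in CPM on linear axes that start at 0, with WT libraries in blue, KO libraries in red and horizontal lines at the mean of each genotype. H2-D1 is lowest in WT 4 and highest in KO 5 and KO 6, B2m is highest in WT 1, and the 4 genes marked as not tested lie below 0.7 CPM.

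H2-D1 encodes one of the 2 classical class I heavy chains measured here and lies on chromosome 17 from 35262730 to 35267499 (GRCm38). It had 179 (WT 1), 26 (WT 4), 303 (KO 5) and 252 (KO 6) counts, or 10.07, 1.53, 17.3 and 15.5 CPM. Both KO libraries lay above both WT libraries, and WT 4 was far below the other 3. The labels give the strain C57BL/6 for all 4 libraries, but WT 1 and WT 4 differed far more in H2-D1 than in most genes around it, as the comparison along chromosome 17 shows, and whether the WT libraries are alike in strain and origin was not tested. Of the 6 tested genes, 1 showed such a separation with KO higher, as did 11.5% of all genes tested. The WT mean was 5.80 ± 6.04 CPM and the KO mean 16.4 ± 1.25 CPM (SD, n = 2 each).

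For H2-D1 the log2 fold change was 1.496 (SE 0.69), and the unadjusted p of 0.0693 became 0.9999 after edgeR's adjustment over all genes tested. The WT libraries differed from each other by 2.63 on the log2 scale, which is more than the fold change between genotypes, while the KO libraries differed by -0.15 (KO 6 over KO 5). Within table A the log2 ratio of KO to WT was 0.62, and within table B it was 3.40. In the authors' deposited table, H2-D1 is marked as significant in table B, with a fold change of 11.4 and an adjusted p of 2.02e-56, and is not marked in table A, with a fold change of 1.52 and an adjusted p of 0.000159. Those deposited values compare 1 library with 1 library. The ratio of summed counts was 2.78 with a 95% exact binomial interval of 2.36 to 3.28, which covers counting error only.

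A single WT library decided the call. Without WT 1, the log2 fold change of H2-D1 was 3.42 with an adjusted p of 2.37e-07 by edgeR, in a fit that called 0.259% of its genes. That fit leaves WT 4 as the lone WT library and assumes that it varies like the KO libraries. Without WT 4, it was 0.71 with an adjusted p of 0.267 by edgeR, in a fit that called 1.82% of its genes. With the deposited table as a block it was 1.83 with an unadjusted p of 0.0033 and an adjusted p of 0.487 by edgeR, in a fit that called 0.177% of its genes. The direction was the same in every alternative that was run, and the size was not.

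H2-K1 encodes the other classical heavy chain and lies 1262 kb from H2-D1 on the same chromosome, from 33996017 to 34000333. It had 76 (WT 1), 39 (WT 4), 61 (KO 5) and 78 (KO 6) counts. WT 4 was again the lowest library, but by far less than for H2-D1, and the genotypes overlapped. The WT mean was 3.28 ± 1.40 CPM, the KO mean was 4.15 ± 0.937 CPM, and a log2 fold change of 0.33 (SE 0.38) fell short of the test's threshold. Without WT 4 it was -0.04.

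The balance between the 2 heavy chains therefore differed from library to library. Per kilobase of exon, H2-D1 was 2.68 times H2-K1 (WT 1), 0.759 times (WT 4), 5.66 times (KO 5) and 3.68 times (KO 6). H2-D1 was the more abundant chain in 3 libraries and the less abundant in WT 4. Relative to B2m, H2-D1 stood at 12.5% (WT 1), 2.86% (WT 4), 35.6% (KO 5) and 28.6% (KO 6) per kilobase. H2-K1 stood at 4.64%, 3.77%, 6.29% and 7.77% of B2m in the same order of libraries.

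B2m encodes the light chain that class I molecules share, and lies on chromosome 2 from 122147686 to 122153083. Cd93 is on the same chromosome, 26284 kb away. B2m had 479 (WT 1), 303 (WT 4), 284 (KO 5) and 294 (KO 6) counts. WT 1 was the only high library, and WT 4 lay between the KO libraries in CPM (17.8 against 16.2 and 18.1), so the genotypes overlapped. The log2 fold change was -0.38 (SE 0.22), which did not pass the test, and it was -0.05 without WT 1. In the authors' deposited table the B2m fold change in table A was 0.661 with an adjusted p of 2.39e-07, and the gene is not marked as significant.

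The high B2m value came with high levels of marker genes of several cell types in the same library, among them vessels and microglia. Of the meningeal and ganglionic eminence markers given above, 12 of 12 and 11 of 12 were highest in WT 1. The summed level of 10 pericyte markers was 264 CPM in WT 1 and 145.6 to 182.6 CPM elsewhere, and 9 of the 10 were highest in WT 1. The summed level of 15 endothelial markers was 366 CPM in WT 1 and 227 to 236 CPM in the other 3 libraries, and 13 of the 15 were highest in WT 1. For 16 microglia and macrophage markers it was 129.5 CPM in WT 1 and 52.7 to 58.4 CPM elsewhere, and 15 of the 16 were highest in WT 1. Without WT 1, the median log2 fold change was 0.02 over the 14 tested endothelial and 0.02 over the 15 tested microglia markers. Without WT 4, which leaves WT 1 as the lone WT library, it was -0.82 and -0.93. For the tested pericyte, meningeal and ganglionic eminence markers it was 0.06, -0.54 and -0.59 without WT 1. Without WT 4 it was -0.48, -3.58 and -1.74 for these 3 lists. The part of these cells in the B2m level was not tested, and in bulk RNA a different number of cells of a type cannot be told apart from a different amount of RNA per cell. H2-D1 had 10.07 CPM in WT 1, 17.3 CPM in KO 5 and 15.5 CPM in KO 6, and the part of these cells in its level was not tested either.

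Tapbp encodes tapasin and lies on chromosome 17 from 33915899 to 33929288. It had 312 (WT 1), 315 (WT 4), 359 (KO 5) and 239 (KO 6) counts. The 2 KO libraries were the highest and the lowest, with the WT libraries between them. Its log2 fold change was -0.03 (SE 0.19), and with means of 18.03 ± 0.672 CPM (WT) and 17.6 ± 4.07 CPM (KO) it differed by less than the spread between the KO libraries.

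Tap1 and Tap2 encode the 2 chains of the peptide transporter. Tap1 had 38 (WT 1), 52 (WT 4), 44 (KO 5) and 47 (KO 6) counts. The KO libraries lay between the WT libraries, and the log2 fold change was 0.06 (SE 0.33). Tap2 had 8, 5, 6 and 10 counts in the same order, with overlapping genotypes. With 13 counts over the WT and 16 over the KO libraries, the Tap2 ratio of 1.26 had an exact binomial interval of 0.569 to 2.85, for counting error only.

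Nlrc5 encodes the activator of class I promoters and lies on chromosome 8 from 94434356 to 94527272. It had 6 counts in each WT library, 3 in KO 5 and 11 in KO 6. The KO libraries lay on either side of the WT libraries. The ratio of summed counts, KO over WT, was 1.197 with an exact binomial interval of 0.514 to 2.83, for counting error only.

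The immunoproteasome subunits Psmb8, Psmb9 and Psmb10 take the places of the constitutive catalytic subunits Psmb5, Psmb6 and Psmb7 when interferon induces them. Psmb10 had 206 (WT 1), 142 (WT 4), 153 (KO 5) and 180 (KO 6) counts, with both KO libraries between the WT libraries and a log2 fold change of -0.01 (SE 0.25). Per kilobase it stood at 23.1% of Psmb7 (WT 1), 21.9% (WT 4), 24.1% (KO 5) and 22.7% (KO 6). That ratio varied far less between libraries than the counts of Psmb10 did.

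Psmb8 had 9 (WT 1), 10 (WT 4), 9 (KO 5) and 7 (KO 6) counts, which was 0.406% to 0.547% of Psmb5 per kilobase. Its genotypes overlapped. Psmb9 had 5 counts in each WT library, 1 in KO 5 and none in KO 6, and was thus lower in both KO libraries; 11.9% of all genes tested had both KO libraries below both WT libraries. The Psmb9 ratio of summed counts was 0.103 with an exact binomial interval of 0.00236 to 0.721, from 10 WT counts and 1 KO count. In a fit without a filter on low counts, its unadjusted p was 0.0186 and its adjusted p 0.9995 by edgeR. The count of 0 in KO 6 allows up to 0.184 CPM, beside 0.281 and 0.294 CPM in WT. Psmb9 and Tap1 lie head to head on opposite strands and their annotated spans overlap by 0.212 kb. Whether the counting used strand is not given in the sources used here, so reads from that overlap cannot be assigned to one of them.

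**Figure D3:**
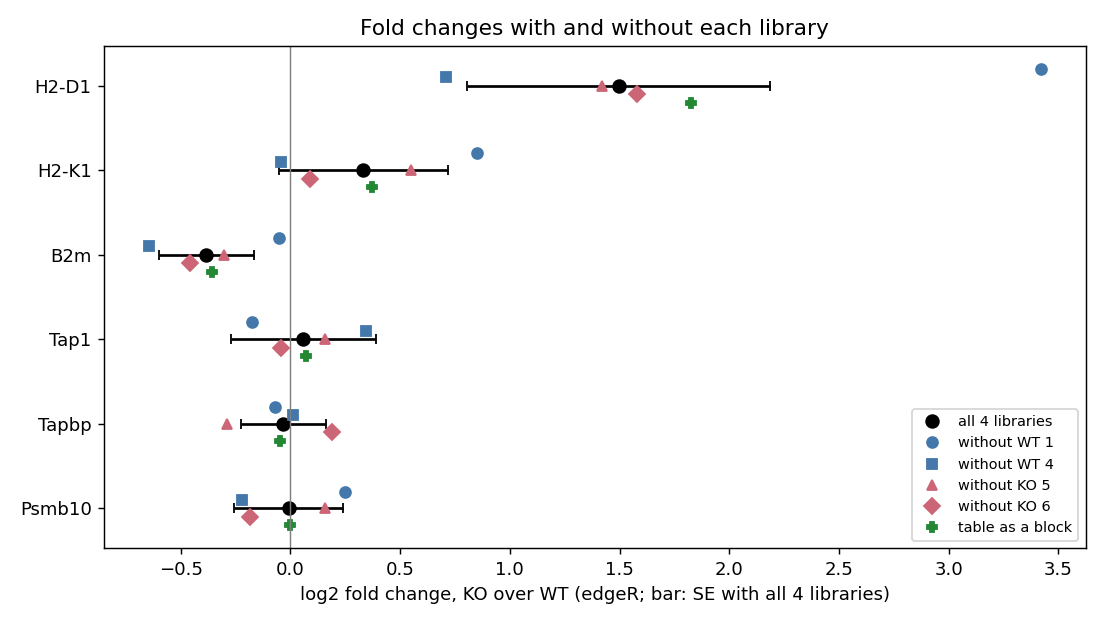
Log2 fold change of KO over WT for the 6 tested genes with all 4 libraries (black, with the SE), without each library in turn, and with the deposited table as a block. H2-D1 ranges from 0.71 without WT 4 to 3.42 without WT 1, while the other 5 genes stay between -0.65 and 0.85.

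Other genes around the pathway were described from lists, given as the number tested, the number above and below 0, and the median log2 fold change. No gene of any of these lists was called with all 4 libraries. Of the other class I and class I-like chains, 11 were tested, 4 above and 7 below 0, with a median of -0.03. H2-T24, a nonclassical class I gene, had 9 (WT 1), 4 (WT 4), 24 (KO 5) and 18 (KO 6) counts. H2-T24 passed the filter through its KO counts alone, so its values are a description and no test of the gene. Its log2 fold change was 1.72 (SE 0.52) with an unadjusted p of 0.0146 and an adjusted p of 0.9999 by edgeR. Fcgrt, the class I-like receptor that recycles IgG, was highest in WT 1 with 229 counts against 49 in WT 4, 68 in KO 5 and 67 in KO 6. The log2 fold change of Fcgrt was -0.98 with all 4 libraries, 0.48 without WT 1 and -1.68 without WT 4. Without WT 1, the median of the 11 chains was 0.23, with 8 above and 3 below 0. Cd1d1, which presents lipids, had 885, 620, 662 and 553 counts, and Procr, the class I-like receptor of protein C, had 35, 19, 22 and 5.

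Of 12 other loading genes of the endoplasmic reticulum, such as the chaperones Calr and Canx, 4 were above and 8 below 0 with a median of -0.04. Pdia3, which is part of the loading complex, had a log2 fold change of -0.08 (SE 0.10). Tapbpl, the tapasin-like peptide editor, had 56 counts in WT 1 and 22, 27 and 31 in WT 4, KO 5 and KO 6. The 8 genes of the constitutive catalytic subunits, the proteasome activators and the assembly factor Pomp had a median of -0.01, and 11 other subunits of the 20S core had a median of 0.02. Psme1, which encodes a subunit of the interferon-inducible activator, had a log2 fold change of -0.02 (SE 0.09).

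The factors that act on class I promoters showed no call either. All 10 were tested, 5 above and 5 below 0, with a median of -0.02. Nfkb1, an NF-kB subunit, had a log2 fold change of -0.20 (SE 0.14), and Creb1 had -0.15 (SE 0.10). Of 18 interferon signalling genes, 9 were above and 9 below 0 with a median of -0.02. Stat3, which carries cytokine signals to the nucleus, had 517 (WT 1), 543 (WT 4), 670 (KO 5) and 590 (KO 6) counts, and a log2 fold change of 0.29 (SE 0.12) with an unadjusted p of 0.0470 and an adjusted p of 0.9999 by edgeR. Irf7, an interferon regulatory factor, had 17, 19, 30 and 19 counts, with overlapping genotypes.

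Interferon-stimulated genes had their highest summed level in WT 1, where B2m was also highest, and none was called. Of 15 tested, 4 were above and 11 below 0, with a median log2 fold change of -0.20, which was -0.52 within table A and -0.08 within table B. The summed level of the 28 listed genes was 52.0 CPM (WT 1), 34.4 (WT 4), 34.1 (KO 5) and 36.0 (KO 6). Of the 28, 17 were highest in WT 1. Without WT 1, 7 of the 15 tested were above and 8 below 0 with a median of -0.035, and without WT 4 the median was -0.56. Ifitm3, a membrane protein that restricts virus entry, had 60 (WT 1), 29 (WT 4), 16 (KO 5) and 24 (KO 6) counts, and Bst2 (tetherin) had 46, 16, 9 and 17. The part of the vessel, microglia, meningeal and ganglionic eminence markers, whose summed levels were also highest in WT 1, was not tested.

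Class II genes, which present peptides on specialised immune cells, were described in the same way. Of 4 tested, 2 were above and 2 below 0. H2-DMa, a chain of the class II peptide editor, had 79 (WT 1), 136 (WT 4), 89 (KO 5) and 68 (KO 6) counts. Ctss, a protease of class II loading, had 137, 117, 85 and 92, which was lower in both KO libraries, as were 11.9% of all genes tested. H2-Eb1, a class II chain, had 4 counts in WT 1, none in WT 4 and 11 in each KO library, and passed the filter through its KO counts alone. H2-Ab1, the beta chain of the other class II isotype, had 6 counts in each WT library and 1 in each KO library without passing the filter. Of the markers of lymphocytes and granulocytes, 3 of 13 were listed in both tables and their summed level was 0.308 to 1.69 CPM. Of the receptors for class I molecules, Cd247, a signalling chain shared by T cell and natural killer receptors, was the only one tested, with 23, 21, 18 and 10 counts.

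**Figure D4:**
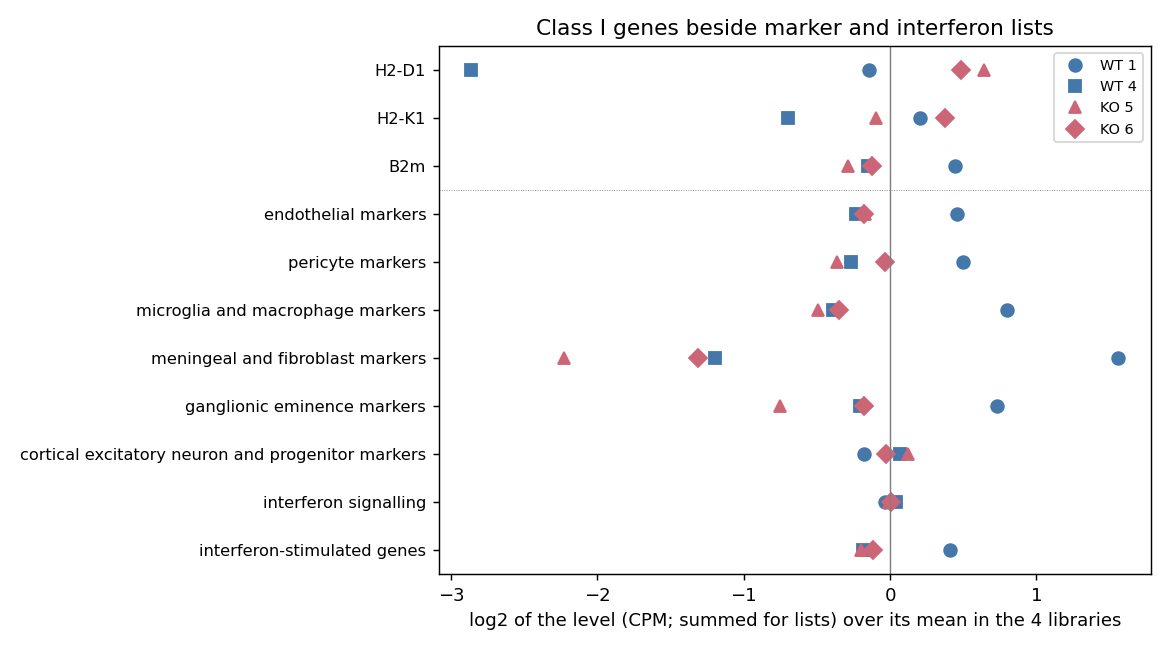
Level of H2-D1, H2-K1 and B2m, and summed level of lists of marker and interferon genes, in each library as the log2 of its ratio to the mean of the 4 libraries. B2m, the vessel, microglia, meningeal and ganglionic eminence markers and the interferon-stimulated genes are highest in WT 1. H2-D1 is lowest in WT 4 and highest in the KO libraries.

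The tested genes most like the mean profile of H2-D1, H2-K1 and B2m were Gm3005, Doc2a, Arhgap28, Myrip and Rpl17-ps9. Likeness was the Euclidean distance between log2 CPM values centred on each gene's own mean over the 4 libraries, and it ran from 0.150 to 0.244. Arhgap28 had 221 (WT 1), 100 (WT 4), 234 (KO 5) and 253 (KO 6) counts. Low counts in WT 4 were common to all 5 genes. This follows from how they were chosen, since the mean profile itself was lowest in WT 4, at -1.02.

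The part of chromosome 17 that holds 7 of the 10 genes was compared library by library. From Tapbp to H2-T22, 33915899 to 36042747, 92 genes were tested, and none was called. In WT 4, 3 of them (H2-D1, Rps18 and H2-Eb1) lay more than 2-fold below every other library, or 3.26%, beside 0.379% of all 16371 genes. In WT 1, KO 5 and KO 6 the number was 0, 1 and 0, beside 0.446%, 0.501% and 0.403% of all genes tested. The 1 gene in KO 5 (Lta) was 1.09% of the 92. More than 2-fold above every other library lay 1 gene in WT 4 (G6b), or 1.09%, beside 0.177% of all genes tested. The low WT 4 value of H2-D1 had been seen before this comparison, and H2-Eb1 passed the filter through its KO counts alone. These shares are therefore a description and no test of the region. The nearest tested gene on one side of H2-D1, the RNA helicase gene Ddx39b, had 9292 (WT 1), 9033 (WT 4), 9858 (KO 5) and 8501 (KO 6) counts. Ddx39b was thus at a like level in all 4. H2-Q4, a nonclassical class I gene on the other side, had 34, 15, 21 and 22 counts in the same order and was also lowest in WT 4, by less than H2-D1.

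**Figure D5:**
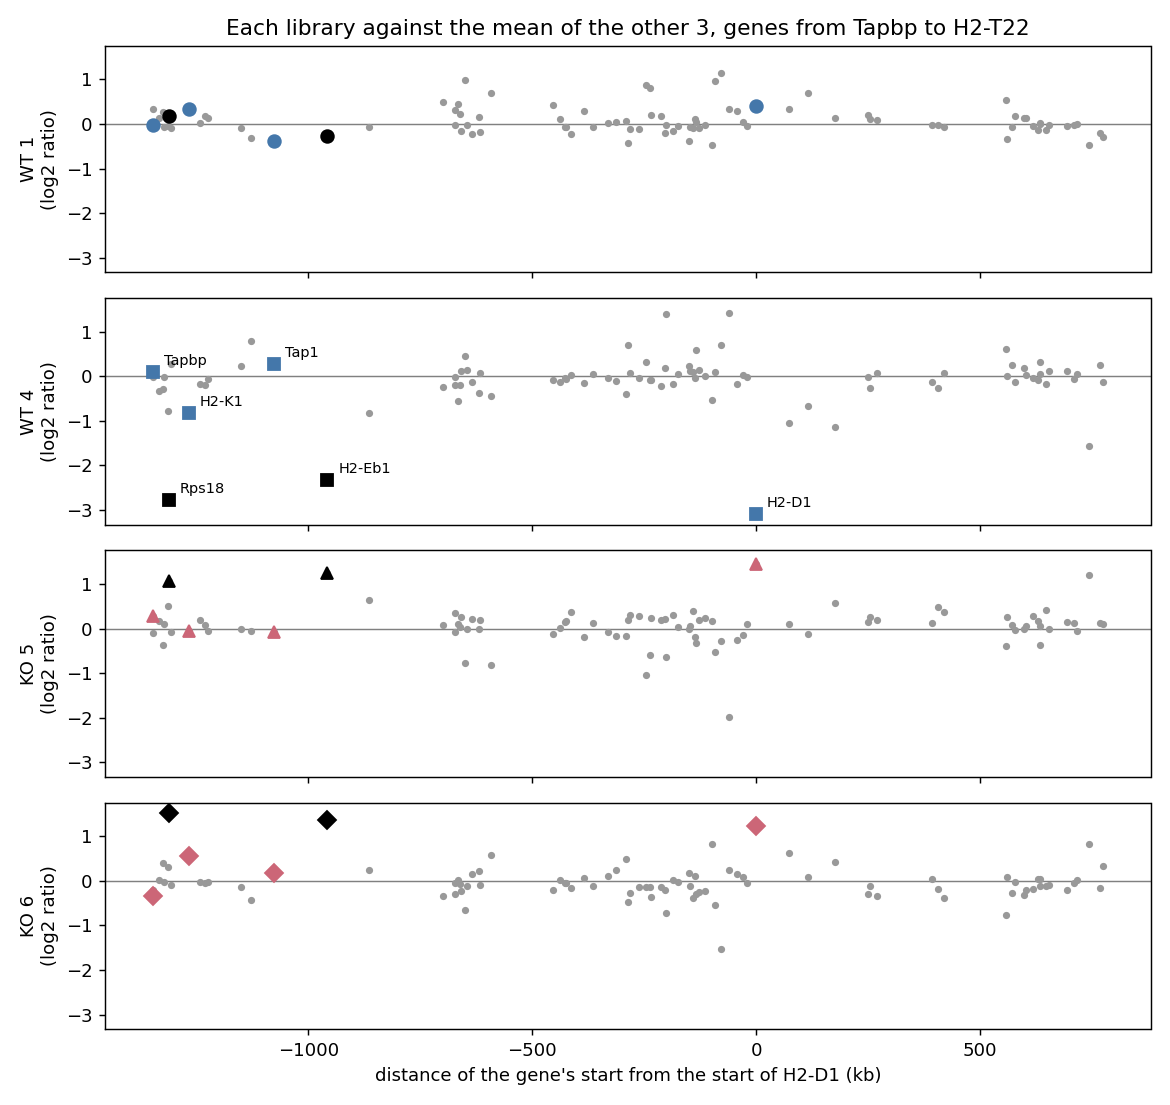
Log2 ratio of each library to the mean of the other 3 for the 92 tested genes from Tapbp to H2-T22, by the distance of a gene's start from the start of H2-D1 in kb, with 1 panel for each library. In WT 4, H2-D1, Rps18 and H2-Eb1 lie at -3.10, -2.77 and -2.33, H2-K1 at -0.83, and most other genes near 0.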

How the data were processed

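RNA was sequenced from 4 libraries, 2 of each genotype. The authors deposited whole counts per Ensembl gene, with a ratio (fold change) and an adjusted p-value that compare 1 KO with 1 WT library in each table, per the file headers. HTSeq 0.6.0, TopHat2 2.0.12 and Bowtie2 2.2.3 are listed with mm9, in no stated role, per the submitters' processing notes. Of 23279 deposited genes found in GENCODE M21 (GRCm38), 92.1% have its start and end, so positions are read as GRCm38.

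Counts of the 20385 genes in both tables were tested with edgeR 4.0.16 (R 4.3.3): filterByExpr, TMM factors, the quasi-likelihood test, and Benjamini-Hochberg adjustment over all 16371 genes tested. CPM are counts scaled to the TMM-adjusted library total. Alternatives were DESeq2 1.42.0, limma 3.58.1 (voom), other scaling, no filter, the table as a block, genes of either table, and leaving out each library. The lists without each WT library were an alternative chosen after seeing the data. The fit was tested on simulated data. Levels per length divide CPM by the exon union of GENCODE M21.

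All 10 genes are named, then Cd93, then from each list up to 4 genes of smallest p, and the 5 genes nearest in profile. H2-Ab1, the genes beside H2-D1 and those that stood apart in WT 4 were named after their values were seen. The 10 genes and the lists were chosen with earlier results of these data known. One of the motifs searched is not reported here.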

Additional observations from a re-analysis of the deposited data

How the results depend on the processing

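Of those of the 10 genes that an alternative tested, none was called except H2-D1 without WT 1, so the number called ran from 0 to 1 when each library was left out. The number of genes called was 9 with DESeq2, 29 with the deposited table as a block, and 5 to 312 when each library was left out (44 with WT 1 left out, 312 with WT 4 left out, and 5 and 8 with KO 5 and KO 6 left out). The median log2 fold change of the tested members ran from -0.015 to 0.16 in those fits and was 0.11 within table B. Signs turned for 4 genes. H2-K1, at 0.33 with all libraries, was -0.042 without WT 4. Tap1 was -0.18 without WT 1 and -0.043 without KO 6. Tapbp was 0.012 without WT 4 and 0.19 without KO 6. Psmb10 was 0.00012 with the table as a block, 0.25 without WT 1 and 0.16 without KO 5. The leave-one-out ranges were -0.042 to 0.85 for H2-K1, -0.18 to 0.34 for Tap1, -0.29 to 0.19 for Tapbp and -0.22 to 0.25 for Psmb10. The cause was not tested. No paired analysis was possible because the genotypes share no replicate numbers in the labels, and pairing by deposited table is the fit with the table as a block. With 2 libraries a genotype and at most 19 counts summed over either genotype for Tap2, Nlrc5, Psmb8 and Psmb9, changes of these genes are limited by depth.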

Other observations

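Other genes had profiles close to that of H2-D1 alone over the 4 libraries; they were sought after its values were seen. The 5 nearest tested genes were A830036E02Rik, Rps18, Tgif2-ps2, H2-Eb1 and Gm8146. H2-Eb1 and Gm8146 passed the filter through their KO counts alone. Rps18, Tgif2-ps2 and H2-Eb1 are also on chromosome 17, but the share of that chromosome among all tested genes was not taken. Tgif2-ps2 starts at 40115358, outside the part of chromosome 17 that was compared library by library. Rps18, which encodes a protein of the small ribosomal subunit, lies 40.02 kb from H2-K1 and had 3562 (WT 1), 732 (WT 4), 5576 (KO 5) and 6507 (KO 6) counts. Tgif2-ps2, a processed pseudogene, had 33, 1, 49 and 33 counts in the same order, and A830036E02Rik, an antisense RNA on chromosome 11, had 22, 2, 29 and 29.

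Rps18-ps3, a processed pseudogene of Rps18 on chromosome 8, ran the other way, with 298 (WT 1), 828 (WT 4), 15 (KO 5) and 18 (KO 6) counts. It was highest in WT 4, the library in which Rps18 was lowest, and lowest in the KO libraries. Ly6g6c, a gene of the same stretch of chromosome 17 as H2-D1 that did not pass the filter, had 8 (WT 1), 89 (WT 4), 4 (KO 5) and 2 (KO 6) counts. What these profiles have in common was not tested.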
